A study of Mus musculus with 6 samples.

Results

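The genes described here are 10 genes of the machinery that carries a cell from the G1 phase into DNA replication: the D cyclins Ccnd2 and Ccnd3, the E cyclins Ccne1 and Ccne2, the cyclin-dependent kinases Cdk2, Cdk4 and Cdk6, and the kinase inhibitors Cdkn1a, Cdkn1b and Cdkn2c. They were taken by symbol from a deposited table of 45808 rows, and all 10 are in it. RNA came from splenic T cells of C57BL/6 mice aged 2 months, activated in culture with antibodies to CD3 and CD28 plus IL-2. The 3 wild-type libraries were compared with 3 libraries of genotype Drp1-/-, the knockout (KO). Drp1 is the GTPase that divides mitochondria and is the product of Dnm1l. Both groups received the same activation, and the sources used here do not say which cells or stage the deletion was made in, nor whether animals were pooled.

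In G1, signals from growth factors raise the D cyclins, which bind and activate Cdk4 and Cdk6. These kinases begin to phosphorylate the retinoblastoma family of pocket proteins, which releases E2F factors, and E2F factors switch on the E cyclins, the partners of Cdk2. Cdkn2c encodes p18, an inhibitor of the INK4 family that binds Cdk4 and Cdk6. Cdkn1a and Cdkn1b encode p21 and p27 of the Cip/Kip family, which block cyclin E with Cdk2 and also bind cyclin D complexes. In resting T cells p27 is abundant, and it declines when the antigen receptor and the IL-2 receptor are engaged.

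Total counts ran from 24738017 to 34730475 per library. Each member had between 373 and 19625 counts in every library. Levels are given as CPM, the counts of a gene relative to those of its library, adjusted by a TMM factor that offsets differences in composition. The test was the quasi-likelihood F test of edgeR over the 14209 genes that passed a filter on low counts, with Benjamini-Hochberg adjustment over all of them and a call at an adjusted p under 0.05. Whether replicates came from different mice or cultures is not stated in the labels. The p-values therefore reflect only how far these libraries differ from each other, which may be technical. Dnm1l stood at 117 to 123 CPM in wild type and 92.6 to 101 CPM in the knockout. Wild-type replicate 1 stood apart: on the main axis of variation (74.7%) it lay at -44.9, and the other wild-type libraries at -20.9 and -20.2. The KO libraries lay at 23.0 to 33.9, so this replicate stood apart along the axis that separates the groups, on the side away from KO. Xist, expressed from an inactive X chromosome, had 0 to 3 counts per wild-type library and 12950 to 16862 per KO library, while 4 Y-linked genes were read in all 6 libraries and fell in KO. Every KO library thus held Xist and Y-linked RNA together, and whether animals of both sexes were pooled is not stated in the labels. Sex composition and genotype therefore cannot be told apart. No member is on chromosome X or Y, but that does not remove this limit, and the part of sex was not tested.

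The markers of the labelled cell type were present. The summed level of 10 T cell markers was 3653 to 3723 CPM in wild type and 3312 to 3365 CPM in the knockout, with 8 lower, 1 higher and 1 not passing. The 4 gamma-delta T cell markers rose, from a sum of 34.5 to 40.8 CPM to one of 82.9 to 99.2 CPM. Markers of other cell types rose as well, at lower sums. All 4 mast cell and basophil markers rose (1.49 to 1.85 CPM in sum in wild type, 6.66 to 8.90 in KO), as did the 3 tested of 4 platelet and megakaryocyte markers (7.54 to 9.63 against 19.8 to 22.6 CPM), the 2 tested of 4 NK cell markers (1.45 to 2.32 against 2.94 to 4.48 CPM) and the 1 tested of 5 erythroid markers (0.383 to 0.805 against 1.29 to 1.88 CPM), with Hba-a2 at 0. Of 7 myeloid markers 2 were tested, with 1 higher and 1 lower (3.83 to 4.38 against 3.06 to 4.03 CPM), and S100a8 and S100a9 were at 0. The 6 B cell markers summed to 475 to 484 CPM in wild type and 415 to 434 CPM in the knockout, with 1 higher and 1 lower. In bulk RNA, fewer cells of a type or in a phase of the cycle and less RNA per cell cannot be told apart. The part of these shifts in the results below was not tested.

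The KO cultures held less Cdkn1b RNA and more RNA of both E cyclins, of Cdk4 and Cdk6, and of Cdkn2c. Cdkn1b was 2.44-fold lower, Ccne1 and Ccne2 were 1.39-fold and 1.40-fold higher, and Cdk4, Cdk6 and Cdkn2c were 1.18-fold to 1.19-fold higher. The D cyclins and Cdk2 did not pass the test. In all, 6 members rose, 1 fell and 3 did not pass. Among all genes tested 52.9% were called, 26.7% higher and 26.1% lower, so a count of 7 called among 10 is not far from the background. The size of change was also ordinary: the median of the absolute log2 fold change was 0.25 for the 10 members and 0.27 for all tested genes. The median with its sign was 0.18 for the members and 0.01 for all genes.

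**Figure D1:**
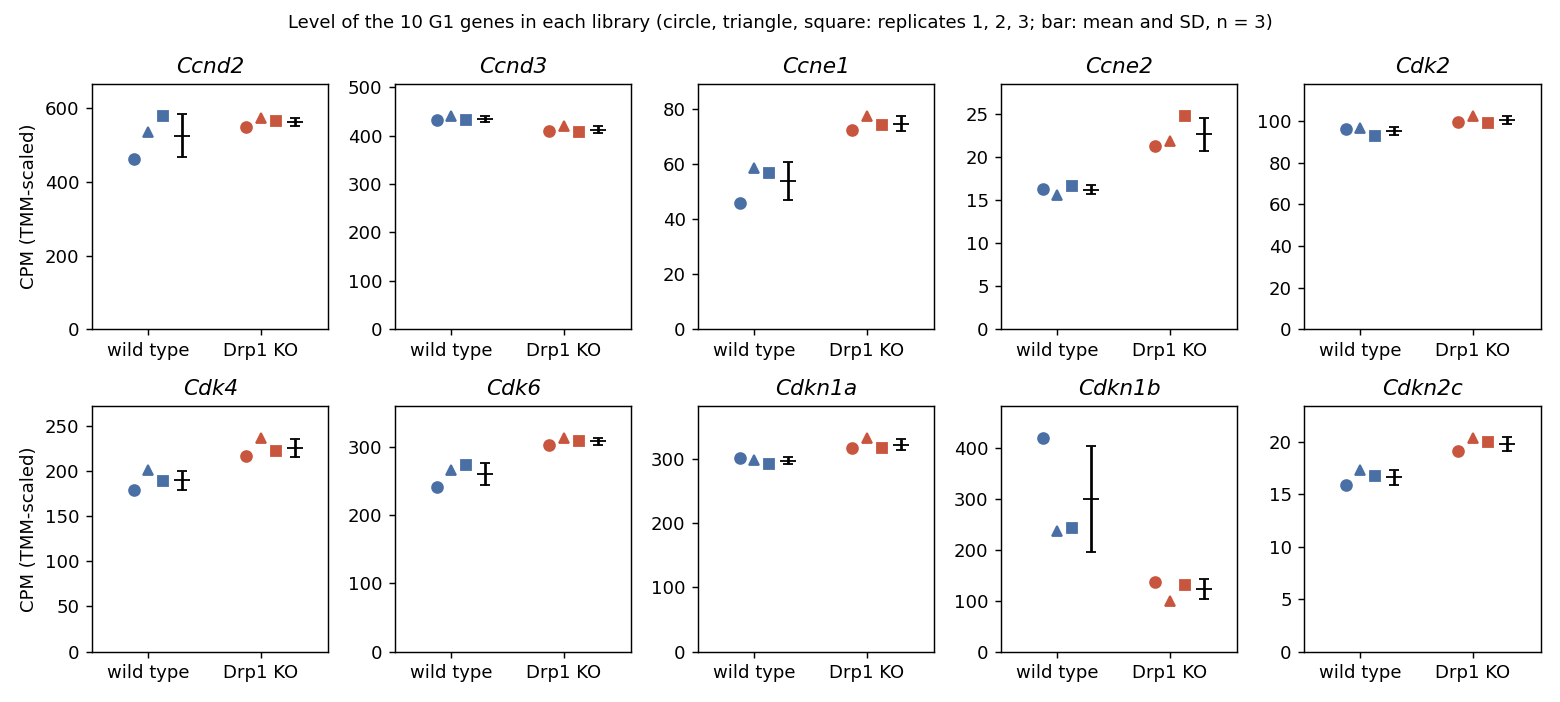
TMM-scaled CPM (y axis, from 0) of each of the 10 genes in wild-type and Drp1 KO libraries (x axis); symbols are replicates and bars show mean and SD of 3 libraries. Cdkn1b falls from 237 to 419 CPM in wild type to 100.3 to 136 CPM in the knockout, with wild-type replicate 1 far above the other wild-type libraries, and for Ccnd2 the groups overlap.

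Cdkn1b, which encodes the Cip/Kip inhibitor p27, showed the largest change of the 10 genes. It is on chromosome 6, 134920401 to 134925513, plus strand (GENCODE, GRCm38, the assembly also called mm10). It stood at 419, 237 and 242 CPM in the wild-type replicates, taken in order, and at 136, 100.3 and 131 CPM in those of the knockout. Values of other members follow the same order. Every KO library lay below every wild-type library, and wild-type replicate 1 was far above the other wild-type libraries. On average it went from 299.6 ± 104 to 123 ± 19.5 CPM (SD, n = 3 for each group), a log2 fold change of -1.29 ± 0.20 (SE) with an adjusted p of 0.000500. Without wild-type replicate 1 the log2 fold change was -0.97, a level 1.96-fold lower. Of 14209 tested genes 0.985% were called with a fall at least as large as that of Cdkn1b.

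The other inhibitors among the members did not follow, while Cdkn2d, an inhibitor outside the members, fell (log2 -0.56), as given below. Cdkn2c (p18; chromosome 4, 109660876 to 109667189, minus strand) was read at 15.9, 17.3 and 16.7 CPM in wild type and at 19.1, 20.3 and 19.9 CPM in the knockout. The groups did not overlap, and the log2 fold change was 0.25 ± 0.07 (SE; adjusted p = 0.01003). Cdkn1a (p21; chromosome 17, 29090976 to 29100727, plus strand), a textbook target of the transcription factor p53, was read at 301, 298 and 292 CPM in wild type and at 316, 332 and 317 CPM in the knockout. Its groups did not overlap either, but the rise was small: 8.32%, with a 95% interval of 1.42% to 15.7% and an adjusted p of 0.0428. That call was lost in 9 of 16 alternative analyses, where the adjusted p ran up to 0.171, among them DESeq2 (0.0828) and each of 5 of the 6 analyses that left out 1 library.

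Both E cyclins rose by similar amounts. Ccne1, cyclin E1 (chromosome 7, 38097984 to 38107534, minus strand), was read at 45.9, 58.8 and 56.9 CPM in wild type and at 72.3, 77.6 and 74.3 CPM in the knockout. Wild-type replicate 1 was the lowest library, and the groups did not overlap. The log2 fold change of Ccne1 was 0.47 ± 0.08 (SE; adjusted p = 0.00107), and 0.37 without wild-type replicate 1. Ccne2, cyclin E2 (chromosome 4, 11191351 to 11204779, plus strand), was read at 16.2, 15.6 and 16.7 CPM in wild type and at 21.2, 21.8 and 24.8 CPM in the knockout. Its groups did not overlap, wild-type replicate 1 was in the middle of its group, and the log2 fold change was 0.48 ± 0.08 (SE; adjusted p = 0.000564). Of the exonic bases of Ccne2 17.4% overlap exons of Ints8, an Integrator subunit gene on the opposite strand. Ints8 rose too (log2 0.26, adjusted p = 0.00328), and since the strand setting of the counting is not given in the sources used here, reads in that stretch may belong to either gene.

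The D cyclins were high and differed little between the groups. Ccnd2, cyclin D2 (chromosome 6, 127125162 to 127152193, minus strand), was read at 463, 535 and 580 CPM in wild type and at 549, 573 and 567 CPM in the knockout. The KO libraries lay inside the wild-type range, and the difference of 6.97% had a 95% interval of -4.11% to 19.3% (log2 0.10 ± 0.07, SE; adjusted p = 0.274). The log2 value of Ccnd2 was 0.012 without wild-type replicate 1, the lowest library, 0.17 without wild-type replicate 3, the highest, and 0.17 when scaled by library totals alone; it passed in none of these. Ccnd3, cyclin D3 (chromosome 17, 47505051 to 47599691, plus strand), was read at 431, 441 and 432 CPM in wild type and at 409, 421 and 408 CPM in the knockout. These groups did not overlap, but the difference of -5.12% had an interval of -10.8% to 0.910% and did not pass (log2 -0.08 ± 0.04, SE; adjusted p = 0.136). With library totals alone as the scaling the log2 value of Ccnd3 was -0.00065. A pseudogene, Ccnd3-ps, is listed in the table at 0.381 to 0.894 CPM, and exons of Bysl on the opposite strand overlap 4.11% of the exonic bases of Ccnd3. Bysl, a ribosome biogenesis gene, rose (log2 0.92, adjusted p = 0.000327).

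**Figure D2:**
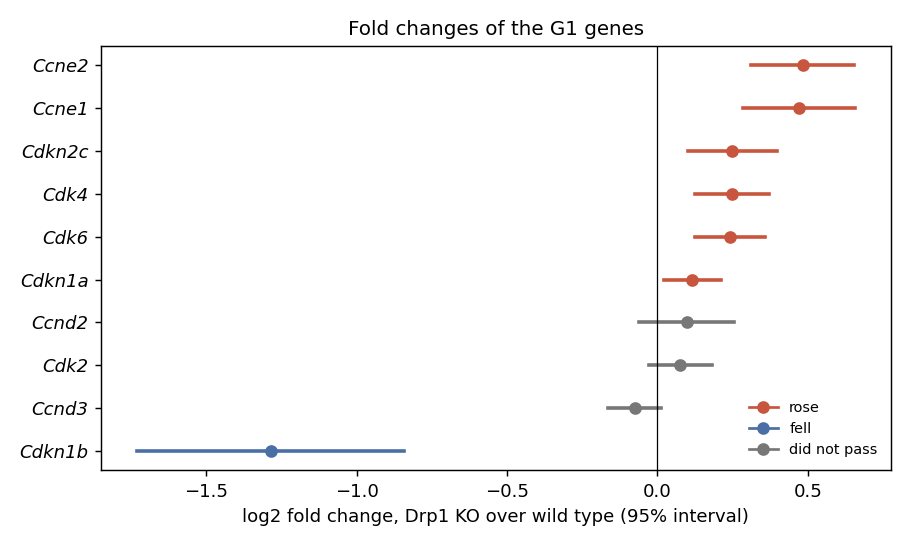
Log2 fold change of Drp1 KO over wild type (x axis) with its 95% interval for each gene (y axis), coloured by whether it rose, fell or did not pass at an adjusted p under 0.05. Cdkn1b lies at -1.29, the E cyclins at 0.47 and 0.48, and the intervals of Ccnd2, Ccnd3 and Cdk2 include 0.

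Cdk4 and Cdk6, the kinases of the D cyclins, rose together. Cdk4 (chromosome 10, 127063534 to 127067920, plus strand) was read at 179, 201 and 188 CPM in wild type and at 216, 236 and 222 CPM in the knockout. The groups did not overlap, and the log2 fold change was 0.25 ± 0.06 (SE; adjusted p = 0.00384). Cdk6 (chromosome 5, 3341485 to 3531008, plus strand) was read at 242, 265 and 273 CPM in wild type and at 303, 312 and 308 CPM in the knockout. It too showed no overlap, with a log2 fold change of 0.24 ± 0.05 (SE; adjusted p = 0.00325). Wild-type replicate 1 was the lowest library for both, and without it the log2 values were 0.21 for Cdk4 and 0.19 for Cdk6. Cdk2 (chromosome 10, 128697939 to 128705031, minus strand), the kinase of the E cyclins, was read at 96.0, 96.7 and 92.7 CPM in wild type and at 99.4, 102 and 98.9 CPM in the knockout. The groups did not overlap, but the difference of 5.44% had an interval of -1.86% to 13.3% and did not pass (log2 0.08 ± 0.05, SE; adjusted p = 0.192). With library totals alone as the scaling Cdk2 was called (log2 0.15, adjusted p = 0.0200). Tspan31 on the opposite strand shares 19.7% of the exonic bases of Cdk4, and it fell (log2 -0.20, adjusted p = 0.00505), the direction opposite to Cdk4.

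KO and wild-type libraries did not overlap for 9 of the 10 members, 7 with KO above and 2 with KO below, and Ccnd2 was the exception. Over all tested genes the groups did not overlap for 63.3%, with KO above for 32.5% and below for 30.8%. Wild-type replicate 1 was the lowest wild-type library for 6 members and the highest for 2.

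RefSeq promoter windows (GRCm38.p6, 250 bases before to 50 after an annotated start) were at hand for 8 of the 10 genes, in 11 windows. Ccnd2 and Ccne2 had none and were not searched. They were searched on both strands for the E-box CACGTG, the letters that Myc with Max binds, and for 4 forms of the E2F site, TTTCCCGC, TTTCGCGC, TTTGCCGC and TTTGGCGC. No form overlaps the E-box. Myc was among the genes that rose, as given below, and whether it acts on these genes here was not tested. The windows of the kinases are shown because Cdk4 and Cdk6 rose by like amounts while Cdk2 did not pass, and that of Cdkn1b because it changed most. Capitals mark E-boxes in Cdk4 and Cdk6 and an E2F form, read on the reverse strand, in Cdk2. The sequences read 5′ to 3′ along the gene: Cdk4 at chr10:127063285-127063584 (plus strand), Cdk6 at chr5:3343643-3343942 (plus), Cdk2 at chr10:128705002-128705301 (minus) and Cdkn1b at chr6:134920151-134920450 (plus).
Cdk4: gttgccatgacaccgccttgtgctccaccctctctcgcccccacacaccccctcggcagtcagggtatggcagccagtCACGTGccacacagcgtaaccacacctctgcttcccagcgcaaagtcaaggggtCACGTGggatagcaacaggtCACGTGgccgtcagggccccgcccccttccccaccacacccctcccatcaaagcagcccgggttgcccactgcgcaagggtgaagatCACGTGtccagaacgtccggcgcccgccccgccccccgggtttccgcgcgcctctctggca
Cdk6: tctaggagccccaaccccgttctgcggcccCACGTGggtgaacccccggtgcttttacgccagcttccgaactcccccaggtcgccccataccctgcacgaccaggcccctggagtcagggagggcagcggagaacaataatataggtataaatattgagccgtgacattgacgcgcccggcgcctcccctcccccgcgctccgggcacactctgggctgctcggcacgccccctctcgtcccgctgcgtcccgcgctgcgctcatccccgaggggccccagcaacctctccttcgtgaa
Cdk2: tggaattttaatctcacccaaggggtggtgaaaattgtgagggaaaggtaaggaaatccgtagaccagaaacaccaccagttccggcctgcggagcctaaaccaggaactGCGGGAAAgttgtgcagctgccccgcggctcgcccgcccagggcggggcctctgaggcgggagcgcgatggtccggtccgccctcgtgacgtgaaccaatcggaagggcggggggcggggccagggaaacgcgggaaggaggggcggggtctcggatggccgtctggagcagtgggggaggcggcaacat
Cdkn1b: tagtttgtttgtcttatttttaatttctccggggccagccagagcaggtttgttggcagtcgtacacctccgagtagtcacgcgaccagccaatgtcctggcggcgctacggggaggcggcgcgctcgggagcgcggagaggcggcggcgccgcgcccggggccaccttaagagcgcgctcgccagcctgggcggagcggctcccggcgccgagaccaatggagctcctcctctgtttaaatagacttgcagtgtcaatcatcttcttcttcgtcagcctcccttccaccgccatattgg

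The Cdk4 window holds 4 E-boxes, with first bases at -172, -118, -98 and -11 from the start. Of 32851 windows of the same length in the RefSeq table, 7.15% hold at least 1 E-box, and 8 windows (0.0244%) hold 4 or more. The Cdk6 window has 1 E-box at -220, and 1 of the Cdkn2c windows has 1 at 35 bases past its start. The Cdk2 window holds 1 E2F form at -140, against 2.26% of all windows with at least 1. Neither set of letters is in the window of Ccne1 or Cdkn1b, nor in the windows of Ccnd3 and Cdkn1a. These matches are letters in a window and no measure of binding.

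To compare genes with each other, CPM was divided by the length of each gene's longest annotated transcript in kb. That length need not be the form these cells use, so the order is approximate. In wild type the order from the highest was Cdkn1a at 143 ± 2.31 CPM per kb, Ccnd3 at 113 ± 1.45, Cdk4 at 92.2 ± 5.27, Ccnd2 at 83.1 ± 9.33, Cdkn1b at 65.8 ± 22.7, Cdk2 at 29.1 ± 0.656, Ccne1 at 26.9 ± 3.47, Cdk6 at 22.6 ± 1.44, Cdkn2c at 6.72 ± 0.284 and Ccne2 at 5.38 ± 0.176 (SD, n = 3). Neighbours whose wild-type libraries overlapped were Cdk4 and Ccnd2, Ccnd2 and Cdkn1b, Cdk2 and Ccne1, and Ccne1 and Cdk6. In KO Cdkn1b stood at rank 7 of 10, at 26.9 ± 4.29 CPM per kb, beside Cdk6 at 26.7 ± 0.432. Cdk4, at 109.6 ± 4.97, stood at rank 2 beside Ccnd3, at 107 ± 1.83, and Ccne1, at 37.4 ± 1.36, moved above Cdk2, at 30.7 ± 0.588. The KO libraries of Cdk4 and Ccnd3 overlapped, those of Cdkn1b and Cdk6 did too, and those of Ccne1 and Cdk2 did not.

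**Figure D3:**
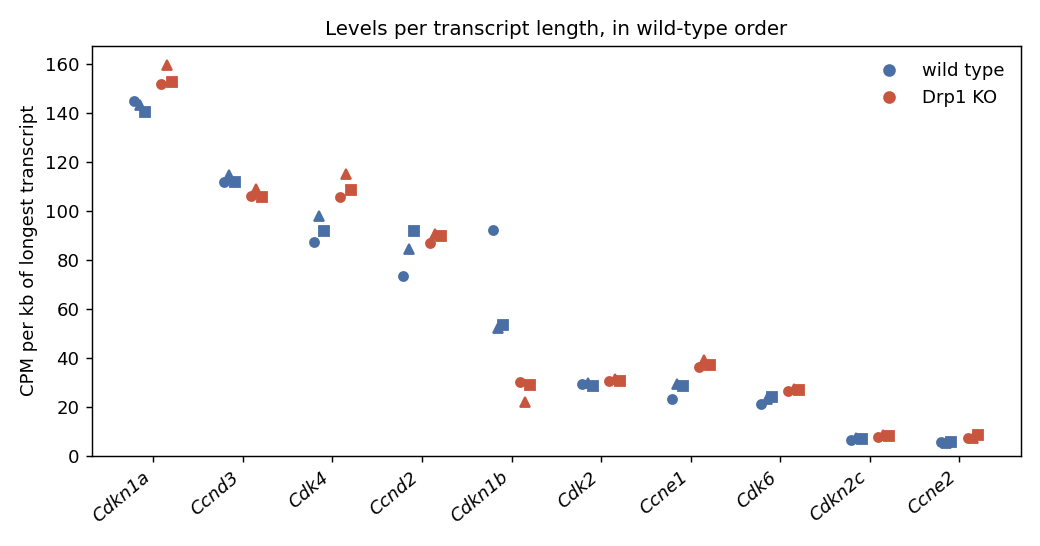
TMM-scaled CPM per kb of longest transcript (y axis, from 0) for each gene in wild-type order (x axis); each symbol is 1 library (circle, triangle and square for replicates 1, 2 and 3). Cdkn1a is highest in both groups, and Cdkn1b goes from 65.8 to 26.9 CPM per kb on average.

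The make-up of each family changed little for the kinases and most for the inhibitors. Families here hold members alone. The inhibitor Cdkn2d (146 ± 12.9 CPM in wild type, 98.8 ± 5.38 CPM in KO) is in none of these shares or sums. Cdkn1b made up 37.9%, 25.8% and 26.6% of the inhibitor RNA per kb in wild type, and 15.8%, 11.6% and 15.2% in KO. The share of Cdkn1a was 59.5%, 70.8% and 70.0% in wild type and 80.1%, 84.1% and 80.5% in KO. Because Cdkn1a was the larger term, the sum of the 3 inhibitors differed less than Cdkn1b did: it was 243, 202 and 200.2 CPM per kb in wild type and 189.6, 189.8 and 189.3 CPM per kb in the knockout. The sum of the 3 kinases was 138, 150.4 and 144 CPM per kb in wild type and 162, 174 and 165 CPM per kb in the knockout. E cyclins went from 13.3%, 14.8% and 14.3% of the cyclin RNA per kb in wild type to 18.3%, 18.8% and 18.9% in KO.

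Of 7 ratios compared between the groups, 4 did not overlap. They are built from members that, Ccnd2 aside, did not overlap on their own, so the count is no separate result. With 3 libraries against 3 the exact permutation test cannot go below a 2-sided p of 0.1, so none could pass, and these 4 sat at that limit (adjusted p = 0.175 over the 7 ratios, exact permutation test). The ratio of Cdkn1a to Cdkn1b per kb was 2.32 ± 0.648 in wild type and 5.87 ± 1.20 in KO. The ratio of Cdkn2c to Cdkn1b was 0.110 ± 0.0352 and 0.304 ± 0.0614. D cyclins stood at 6.09 ± 0.396 times the E cyclins in wild type and 4.36 ± 0.0895 times in KO. The member inhibitors, which leave out Cdkn2d, were also set against the member kinases. They stood at 1.502 ± 0.231 times the kinases in wild type, with replicate 1 at 1.77, and at 1.14 ± 0.0387 times in KO (SD, n = 3 for each).

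The ratios between paralogs overlapped. Ccne1 to Ccne2 was 5.02 ± 0.711 in wild type and 4.99 ± 0.433 in KO, and Cdk4 to Cdk6 was 4.09 ± 0.199 and 4.10 ± 0.123 (exact permutation p = 1 for both). Ccnd2 to Ccnd3 was 0.737 ± 0.0825 in wild type and 0.832 ± 0.0152 in KO (exact permutation p = 0.2, adjusted p = 0.28). The log2 difference of that ratio was 0.18 with all libraries and 0.096 without wild-type replicate 1. These tests could not have reached 0.05, so they do not show that the ratios are alike.

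**Figure D4:**
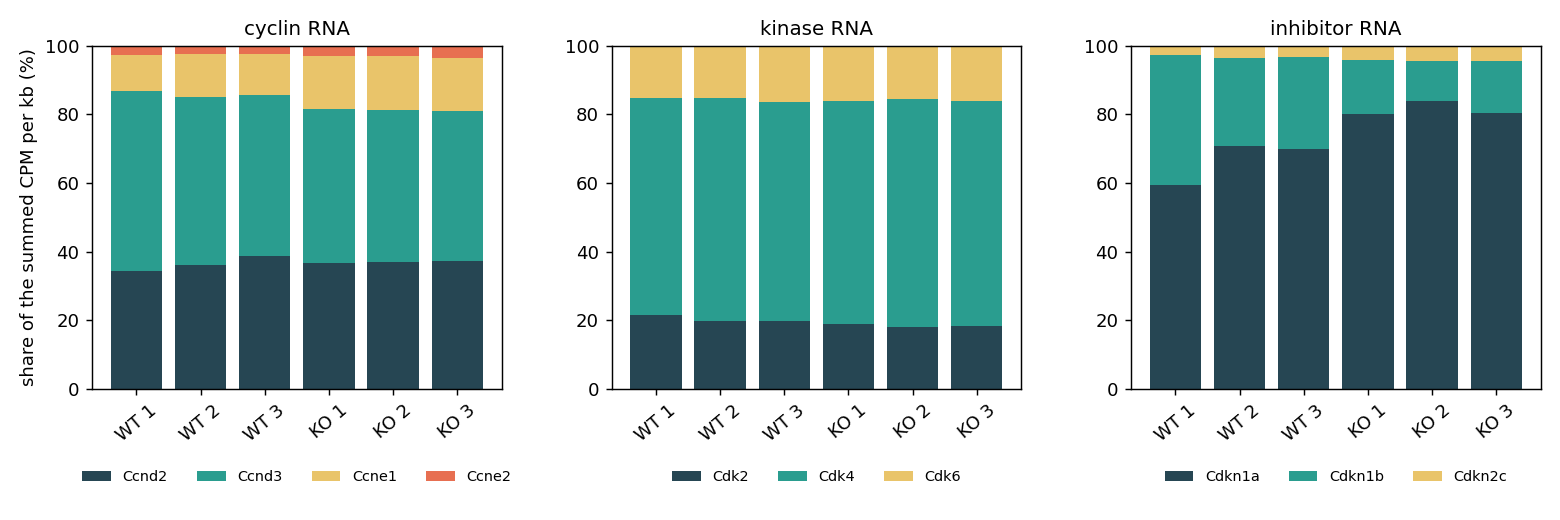
Share of each gene in the summed CPM per kb of the members of its family (y axis, percent) in each library (x axis), for cyclins, kinases and inhibitors. The Cdkn1b share is 25.8% to 37.9% in wild type and 11.6% to 15.8% in KO, and the kinase shares differ little between libraries.

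Other genes of the pathway were described in 5 lists with 65 genes, of which 62 were tested, and 22 rose, 19 fell and 21 did not pass. The shares to set beside these counts and those of each list below are 52.9% called, 26.7% higher and 26.1% lower over all tested genes. Among the other cyclins, kinases and inhibitors of G1 and S phase, 5 were tested, with 2 higher, 1 lower and 2 not called (median log2 0.12). Cdk1, the kinase of mitosis that also works in S phase, rose from 142 ± 8.49 to 189 ± 9.38 CPM (log2 0.41 ± 0.06, SE; adjusted p = 0.000300). Ccna2, cyclin A2, which takes over from the E cyclins in S phase, rose by less (log2 0.16 ± 0.05). Cdkn2d, which encodes p19 of the INK4 family, fell from 146 ± 12.9 to 98.8 ± 5.38 CPM (log2 -0.56 ± 0.07; adjusted p = 0.000156), so the INK4 genes Cdkn2c and Cdkn2d moved in opposite directions. Without wild-type replicate 3 or KO replicate 3 the count of 2 rises was 1. Ccna1, Cdkn2a and Cdkn2b, chosen for mention after their values were seen, were not tested, with 1, 52 and 41 counts over all 6 libraries. Ccnd1, the remaining D cyclin, was mentioned for the same reason: it had 192 counts in all and did not pass.

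Pocket proteins and E2F factors moved both ways. Of 13 genes, 7 were higher, 4 lower and 2 not called (median log2 0.13). Tfdp1, the DNA-binding partner of E2F factors, rose from 102 ± 12.5 to 166 ± 8.84 CPM (log2 0.70 ± 0.08; adjusted p = 0.000120), and the repressor-type factors E2f8 (log2 0.65 ± 0.10) and E2f6 (log2 0.45 ± 0.08) rose with it. The activator-type factor E2f2 fell (log2 -0.53 ± 0.06; adjusted p = 0.000114), as did Tfdp2, another partner (log2 -0.40 ± 0.06), and Rb1, the retinoblastoma protein gene (log2 -0.42 ± 0.08). E2f1 (log2 0.31 ± 0.09) and E2f3 (log2 0.23 ± 0.09), also of the activator type, rose, so that type moved both ways. E2f1 and E2f3 were chosen for mention after their values were seen. The count of 7 rises was 4 without KO replicate 2.

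Of 11 genes that set the phosphorylation or assembly of the kinases, 6 were higher, 2 lower and 3 not called (median log2 0.19). Cks1b, the small subunit that brings p27 to its ubiquitin ligase, rose (log2 0.25 ± 0.05; adjusted p = 0.00162), as did the inhibitory kinase Pkmyt1 (log2 0.26 ± 0.05) and the G1/S phosphatase Cdc25a (log2 0.21 ± 0.05). The phosphatases Cdc25b (log2 -0.28 ± 0.04) and Cdc25c (log2 -0.19 ± 0.06), which act mainly at mitosis, fell. The count of 8 called genes was 5 without KO replicate 2 and 4 without KO replicate 3, the count of 6 rises was 3 without either of these libraries, and the count of 2 falls was 1 without wild-type replicate 2 or KO replicate 3 or with library totals alone.

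Most ubiquitin ligase genes for G1 cyclins and inhibitors did not pass: of 15, 4 were higher, 1 lower and 10 not called (median log2 0.10). Skp2, which marks p27 for destruction, rose from 13.6 ± 0.239 to 17.7 ± 1.31 CPM (log2 0.37 ± 0.08; adjusted p = 0.00240). The cullins Cul4a (log2 0.49 ± 0.09) and Cul1 (log2 0.17 ± 0.05) rose, and Cul4b, which is on chromosome X, fell (log2 -0.43 ± 0.09). The count of 5 called genes was 3 without KO replicate 2 (2 of them rises), 8 with upper quartile factors and 9 with library totals alone.

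Upstream regulators of these genes were the list in which falls outnumbered rises. Among 18 genes 3 were higher, 11 lower and 4 not called (median log2 -0.16), against 26.7% higher and 26.1% lower over all tested genes. The list was chosen with earlier results of these data known, so its counts describe the chosen genes alone. Trp53, the p53 gene, rose (log2 0.37 ± 0.05; adjusted p = 0.000357), as did Myc, which drives D cyclin and Cdk4 transcription, from 166 ± 30.5 to 234 ± 12.9 CPM (log2 0.49 ± 0.11; adjusted p = 0.00397), and its paralog Mycn at a low level (log2 0.97 ± 0.24). Foxo3, a forkhead factor known to activate Cdkn1b, fell from 125 ± 13.5 to 81.1 ± 5.93 CPM (log2 -0.62 ± 0.08; adjusted p = 0.000200). Stat5b, a transducer of IL-2 signals (log2 -0.46 ± 0.06), and Btg1, an antiproliferative gene of quiescent lymphocytes (log2 -0.71 ± 0.09), fell too. The count of 11 falls was 7 without wild-type replicate 3, and 8 without KO replicate 2, without KO replicate 3 or with library totals alone.

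**Figure D5:**
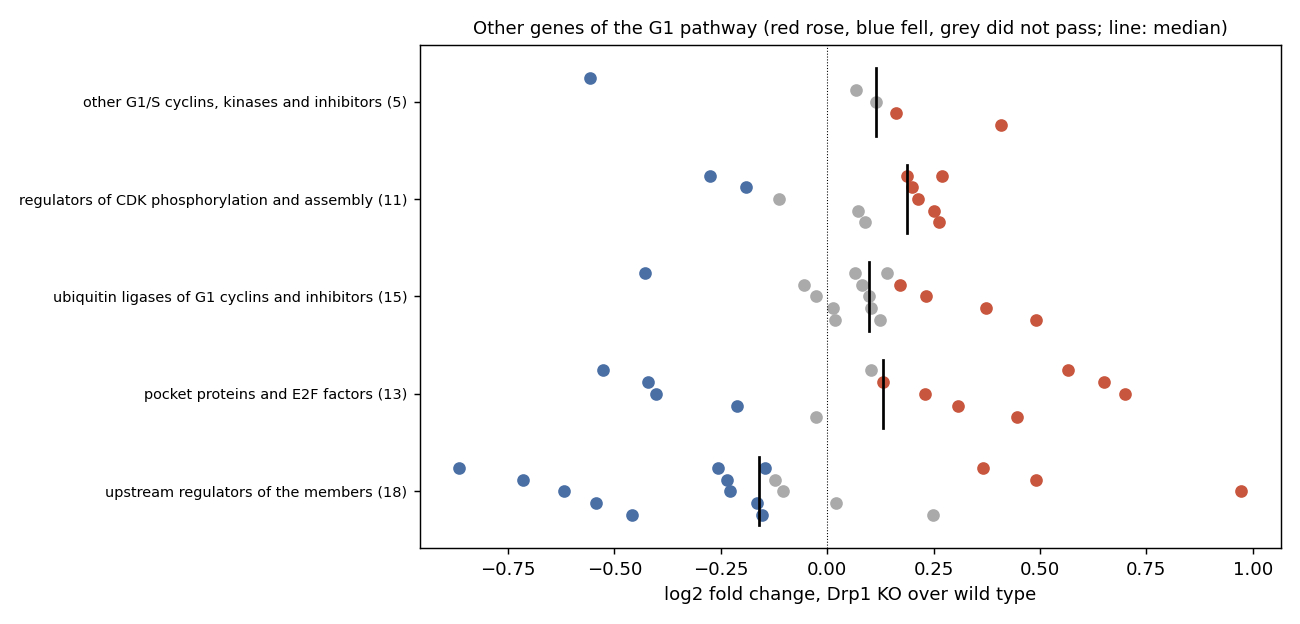
Log2 fold change of Drp1 KO over wild type (x axis) of the 62 tested genes of 5 pathway lists (y axis, number tested in brackets); each point is a gene, coloured by its call, and the line is the list's median. The upstream regulators have a median of -0.16 and the other lists lie between 0.10 and 0.19.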

How the data were processed

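The file deposited by the authors holds unnormalized counts, with gene symbols as rows and 6 libraries as columns. The submitters' processing notes name STAR 2.5.2, HTSeq 0.6.1, DESeq2 1.12, FastQC, Cufflinks and build mm10, without roles. Libraries were made with a stranded poly(A) kit, per the labels' protocols. How strand, annotation and reads matching several places were handled is not given in the sources used here. In 27 rows, holding 0.241% of counts, a spreadsheet had turned the symbol into a date; they stayed in the totals and are not named. A floor of 3 counts corresponds to 0.0840 to 0.128 CPM.

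Counts were analysed in edgeR 4.0.16 (R 4.3.3) by its quasi-likelihood F test for genotype, after TMM scaling and filterByExpr, leaving 4 residual degrees of freedom. The common biological coefficient of variation was 6.13%. SE is the log2 fold change divided by the square root of F. The procedure was tested on simulated data. Ratios were compared with a 2-sided exact permutation test over libraries (scipy 1.17.1). Positions and transcript lengths are those of GENCODE for GRCm38, matched by symbol.

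All members are named. From each other list the called genes with the smallest adjusted p are named, at most 3 in each direction. E2f1 and E2f3 are named in addition. For likeness of pattern, the gene of at least 10 CPM with the smallest root mean square difference to each member is named. Members and lists were chosen with earlier results of these data known. The alternatives tried were scaling in edgeR by DESeq2 size factors, upper quartiles or library totals alone, testing without a filter or with at least 1 CPM in 3 libraries, DESeq2 1.42.0, limma-voom (limma 3.58.1), a replicate block, genes of chromosomes X and Y left out, an adjusted p under 0.01, and each library left out in turn.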

Additional observations from a re-analysis of the deposited data

How the results depend on the processing

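The fall of Cdkn1b and the rises of Ccne1, Ccne2, Cdk4 and Cdk6 kept their direction and stayed called in all 16 alternatives, with log2 values of -1.43 to -0.97, 0.37 to 0.54, 0.41 to 0.56, 0.21 to 0.32 and 0.19 to 0.32. Cdkn2c (0.22 to 0.32) missed an adjusted p under 0.01 alone (log2 0.25, adjusted p = 0.01003). Cdkn1a lost its call with DESeq2 size factors (log2 0.11, adjusted p = 0.0627), no filter (0.11, 0.0843), DESeq2 (0.11, 0.0828), the 0.01 threshold (0.12) and 5 of 6 libraries left out (all 6 ran from 0.094 to 0.124). Cdk2 was called with library totals alone (0.15), where Cdkn1a stood at 0.19. Library totals alone moved the median of all genes from 0.01 to 0.08 and the share of calls that were higher from 50.6% to 62.0%. With libraries left out, the log2 difference of Ccne1 to Ccne2, near 0, ran from -0.114 to 0.092 that of Cdk4 to Cdk6 from -0.035 to 0.033 and that of Ccnd2 to Ccnd3 from 0.096 to 0.26. Without length scaling the difference of inhibitors to kinases was -0.61 in place of -0.39. The other ratios kept their direction. Same-numbered libraries of the groups deviated from their group means with correlations of 0.17, 0.13 and 0.01. Every library correlated best with its own number except wild-type replicate 3, which did so with KO replicate 2 (0.11 against 0.01). The labels name no pairs, so the main test did not take the numbers as pairs, and a replicate block was tried as an alternative. With the replicate block 7 members and 7900 genes were called, against 7 and 7513 without it, and no member's call changed. With 1 library left out 5985 to 7534 genes were called. With 3 libraries a group, no ratio could pass its test. The 3 genes with few counts were not tested.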

Other observations

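Over the 6 libraries, the gene whose centred log2 CPM lay nearest to that of Cdkn1b was Hbp1, which encodes an HMG-box transcription factor. The root mean square difference was 0.0841 on the log2 scale, against a median of 0.692 over the 8700 genes compared, and the log2 fold change of Hbp1 was -1.37. Nearest to Ccne1 was Ccdc71 (0.0205), and nearest to Ccne2 was Ell2, an elongation factor of RNA polymerase II (0.0191). Cdk4 was nearest to Trnau1ap (0.0114), Cdk6 to Tsr2 (0.0108), Cdkn2c to Ints7 (0.0120), Cdk2 to Atp5o (0.0101) and Cdkn1a to Psme2 (0.0105). Ccnd2 was nearest to Il4ra, the IL-4 receptor alpha chain (0.0209), and Ccnd3 to Ctsd, cathepsin D (0.00569). Among the members themselves, Cdk4 and Cdkn2c were each other's nearest (0.0218), as were Cdk2 and Cdkn1a (0.0229). Cdkn1b lay 0.665 from its nearest member, Ccnd3, close to its median of 0.692 over the genes compared. The libraries form 2 groups, so likeness over them is mostly likeness of the difference between groups.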
